A study of Rattus norvegicus with 6 samples.

Results

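Myostatin and transforming growth factor beta signalling was followed here through 9 genes, namely the ligands Mstn, Tgfb1, Tgfb2 and Tgfb3, the secreted proteins Fst and Fstl1, the intracellular proteins Smad3 and Smad7, and the nuclear co-repressor Tgif1. Every probe set annotated to exactly 1 of these genes was taken, which gave 16 of the 15923 probe sets on the array, and no probe set was shared between one of these genes and another gene. The tissue was the costal diaphragm of the left side, part of the main muscle of breathing, of male Wistar rats. There were 3 normal rats, given citrate buffer alone, and 3 diabetic rats, given 60 mg/kg of streptozotocin, a toxin of the insulin-producing beta cell, by intraperitoneal injection at 8 weeks of age. Muscle was taken 4 weeks later after an overnight fast in both groups, none of the rats had insulin treatment, and each rat had its own array. The model is one of chemically induced insulin lack in whole muscle. Fewer cells of a type and less RNA per cell cannot be told apart in such samples. The genes were chosen by name, with earlier results of these data known. Smad7, Fst and Fstl1 stand in the study's own list of changed genes, which was selected on these same arrays.

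Myostatin is a secreted member of the transforming growth factor beta family that is made by skeletal muscle and restrains its growth. It binds activin type II receptors, which act with a type I receptor to phosphorylate Smad2 and Smad3. These join Smad4 and enter the nucleus. Follistatin, the product of Fst, binds myostatin and activins and keeps them from their receptors. Smad7 blocks the receptors from inside the cell, and Tgif1 represses transcription together with Smad2 and Smad3. The transforming growth factors beta use another type II receptor but the same Smads, and in muscle they are known for driving collagen synthesis by fibroblasts.

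The values are MAS5 signals, linear intensities that the authors scaled per array. The array medians were 167.6 to 180.8. The labelled tissue was borne out by its markers, since the 7 skeletal muscle fibre markers, among them Acta1 and Ckm, had summed signals of 136187 to 191943 per array, whereas all 5 liver markers lay below the signal filter. That filter, a mean signal over the 6 arrays above 105.8, was set because dim probe sets cannot be told from background without detection calls. On normal replicate 3 alone, the liver markers Alb (247.4) and Ttr (116) lay above 105.8. Alb was 11.5 and 51.2 on normal replicates 1 and 2. Of the 16 probe sets followed here 11 passed the filter and 5 did not, and the single probe sets of Mstn and Tgfb1 were among the latter. The brightest Smad7 probe set passed the filter only through its diabetic arrays. The probe sets of Fst, whose diabetic means lie below the filter level, passed it through their normal arrays. A probe set was called when limma's adjusted p was under 0.05. The probe sets below the filter were judged in a fit without it. No level of one gene is set against that of another.

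Among the 11 probe sets above the filter, 4 were lower in diabetic diaphragm, those of Fst (both), Fstl1 and Smad3, and 2 were higher, those of Smad7 and Tgif1. Of those called, the probe sets of Fst and Smad7 passed the filter through the group in which they were higher. Over all 9519 probe sets above the filter, 3.48% were lower and 3.3% were higher by the same test. The groups did not overlap for 8 of the 11 probe sets, against 29.6% of all those above the filter.

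**Figure D1:**
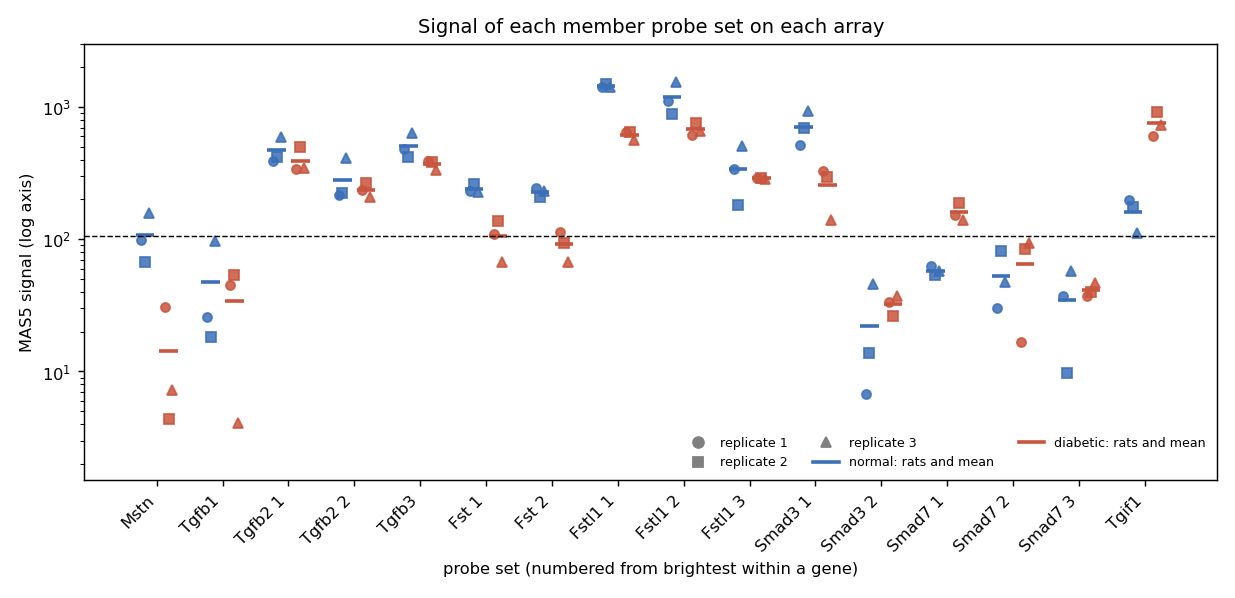
MAS5 signal on a log axis of each of the 16 probe sets in normal (blue) and diabetic (red) diaphragm. Each symbol is 1 rat, its shape gives the replicate, each short line is the mean of 3, and the dashed line is the filter at 105.8. The diabetic symbols lie below all normal ones for Fst and the brightest probe set of Fstl1 and above them for Tgif1.

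Mstn, the gene of myostatin (probe set 1369550_at), had signals of 99.3, 67.3 and 159.2 in the normal rats and 30.8, 4.4 and 7.3 in the diabetic rats. All diabetic values were under the lowest normal value, but only normal replicate 3 lay above the filter level. The group means were 108.6 ± 46.7 (SD, n = 3) and 14.2 ± 14.5 (SD, n = 3), a 7.67-fold lower mean. This probe set was not tested in the fit with the filter. In the fit of all 15866 probe sets without it, the log2 fold change was -3.36 (95% interval -4.97 to -1.74, adjusted p = 0.043 from limma), and 1.43% of probe sets were called lower. The call was lost after quantile normalization (adjusted p = 0.0503) and in 5 of the 6 fits that leave out 1 array (highest adjusted p = 0.14, without normal replicate 3). The size is imprecise as well, since the ratio was 18.6 without diabetic replicate 1 and 5.70 without diabetic replicate 2, and the log2 fold change was -1.12 when 64 was added to every signal.

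Myostatin transcripts are known to be more abundant in fast than in slow fibres. Of the 7 fast fibre markers Myh4, the myosin heavy chain of the fastest fibres, was 3.44-fold lower and Pvalb, the calcium buffer parvalbumin, was 3.13-fold lower (adjusted p = 0.0017 and 0.0061 from limma). The other 5 did not pass. Log2 fold changes were -0.07 for Myh1, -0.10 for Myh2, -0.23 for Mylpf, -0.32 for Tnni2 and -0.36 for Tnnt3. The summed signal of all 7 was 122521 to 134193 on the normal arrays and 86562 to 109514 on the diabetic arrays. That of the 7 skeletal muscle fibre markers overlapped, at 155272 to 191943 on normal and 136187 to 191457 on diabetic arrays. The summed signal of the 6 slow fibre markers overlapped between the groups, at 110142 to 132464 and 106353 to 143558. In limma 0 of the slow fibre markers passed or had an unadjusted p under 0.05, against 3 of the 7 fast fibre markers with such a p. Of all 9519 probe sets above the filter, 1163 were higher and 1112 lower at that unadjusted level. The part of fibre type in the Mstn values was not tested.

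The transforming growth factors beta, secreted in latent form and stored in the matrix, showed no called difference. Tgfb3 (1367859_at) had signals of 484.9, 417.7 and 632.9 in normal and 394.1, 383.6 and 336 in diabetic muscle. Its diabetic arrays all lay below the normal ones, but the difference did not pass over all probe sets (log2 fold change -0.45, 95% interval -0.86 to -0.03, adjusted p = 0.19 from limma). Tgfb2 was read by probe sets 1387172_a_at and 1388011_a_at, whose groups overlapped. The brighter had 390.7, 419.6 and 598.3 in normal and 341.7, 496.3 and 344.5 in diabetic muscle. The dimmer had 216.2, 221.9 and 410.6 in normal and 235, 265.1 and 209.8 in diabetic muscle. On both, normal replicate 3 stood above the other normal rats. The log2 fold changes of the pair were -0.25 (95% interval -0.74 to 0.24) and -0.20 (95% interval -0.77 to 0.37), with adjusted p = 0.54 and 0.69 from limma. Tgfb1 (1370082_at) lay below the filter on all 6 arrays, at 25.8, 18.1 and 97.6 in normal and 44.8, 53.8 and 4.1 in diabetic muscle. Its interval, from -3.01 to 1.54 on the log2 scale in the fit without the filter, spans large changes in either direction, so no difference was detectable at this signal.

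Fst, the gene of follistatin, was read by 2 probe sets with nearly the same values. The first (1372750_at) had signals of 230, 262.9 and 227.4 in normal and 110.5, 137.7 and 67 in diabetic muscle. The second (1387843_at) had 244.9, 208.4 and 231.9 in normal and 113.4, 93.9 and 67.6 in diabetic muscle. On both, the normal rats were close together and every diabetic rat was lower, with diabetic replicate 3 the lowest. Means fell from 240.1 ± 19.8 (SD, n = 3) to 105.1 ± 35.7 (SD, n = 3) on the first probe set, 2.29-fold, and from 228.4 ± 18.5 (SD, n = 3) to 91.6 ± 23.0 (SD, n = 3) on the second, 2.49-fold. The log2 fold changes were -1.25 (standard error, SE, 0.28, adjusted p = 0.026 from limma) and -1.35 (SE 0.25, adjusted p = 0.012). In the 6 fits that leave out 1 array, the first probe set lost its call 5 times (adjusted p up to 0.078) and the second 1 time (adjusted p = 0.053, without normal replicate 1). Without the filter the first did not pass (adjusted p = 0.059 from limma) and the second did (adjusted p = 0.033). The means of both in diabetic muscle lie below the filter level, so both entered the fit with the filter through the normal arrays.

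Fstl1, a secreted glycoprotein related to follistatin in name and in one domain and made mainly by mesenchymal cells, was read by 3 probe sets that differed. The brightest (1371331_at) had signals of 1413.1, 1490.5 and 1410.5 in normal and 642.3, 650.5 and 560.4 in diabetic muscle. Both groups were tight and well apart, the means falling from 1438 ± 45.5 (SD, n = 3) to 617.7 ± 49.8 (SD, n = 3). The log2 fold change was -1.22 (SE 0.15, adjusted p = 0.0018 from limma), and the call was kept in all 6 fits that leave out 1 array (adjusted p up to 0.0093). The second probe set (1368822_at) had 1113, 890.2 and 1542.7 in normal and 618.3, 754.4 and 659.1 in diabetic muscle. Its groups did not overlap either, but it missed the threshold (log2 fold change -0.77, SE 0.21, adjusted p = 0.052). Over the alternatives its adjusted p ran from 0.0325, without normal replicate 2, to 0.14, without diabetic replicate 1.

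The third probe set of Fstl1 (1368821_at) had 342.1, 182.5 and 504 in normal and 290.3, 289.6 and 287.6 in diabetic muscle. The diabetic values fell inside the wide normal range (log2 fold change -0.13, 95% interval -0.81 to 0.56, adjusted p = 0.84 from limma). On this probe set and the second, normal replicate 3 was the highest and normal replicate 2 the lowest normal array. The 3′/5′ ratio of the deposited signals of the GAPDH control transcript, which reads how evenly a transcript was copied along its length, was 1.27 on normal replicate 3 and 4.02 on normal replicate 2, with 2.71 on normal replicate 1. Its part in the spread of these probe sets was not tested. In diabetic muscle the ratio was 2.91, 1.49 and 4, so it did not separate the groups. The ratio of the beta-actin control was 1.47, 2.27 and 1.38 in normal and 1.71, 1.17 and 1.69 in diabetic muscle, again highest on normal replicate 2.

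**Figure D2:**
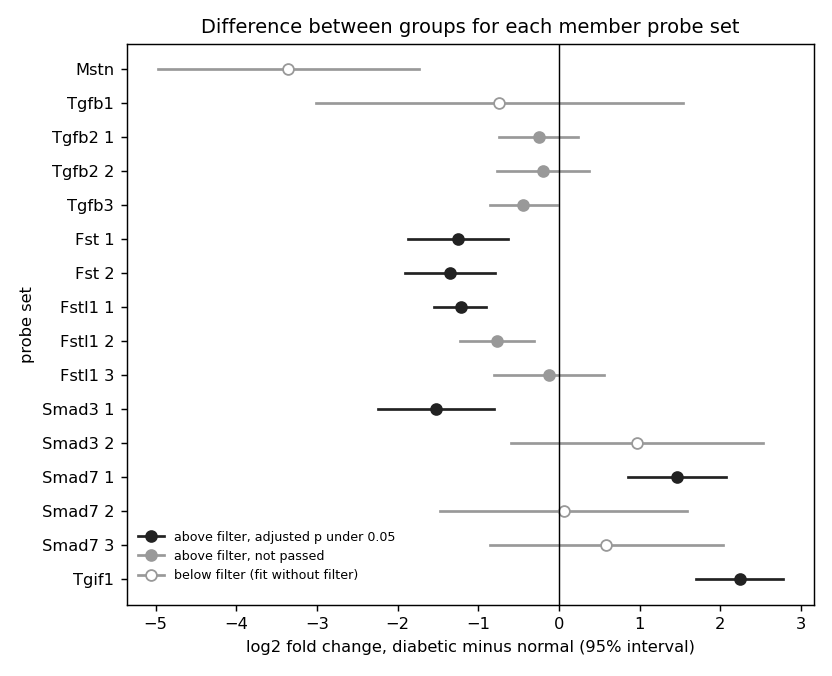
Log2 fold change, diabetic minus normal, of the 16 probe sets with 95% intervals from limma. Black marks the 6 called probe sets, grey the 5 above the filter that did not pass, and open circles the 5 below the filter. The called probe sets of Smad7 and Tgif1 lie right of 0 and those of Fst, Fstl1 and Smad3 left of it. The second probe set of Fstl1, not called, also lies left of 0. The dimmest of Fstl1, the dimmer of Smad3 and the other probe sets of Smad7 cross 0.

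Smad3, the transcription factor that carries the signal of myostatin and the transforming growth factors beta, was lower. Its brighter probe set (1389127_at) had signals of 515.2, 695.6 and 926.6 in normal and 331.2, 298.3 and 139.7 in diabetic muscle. All diabetic arrays lay below the normal ones, and both groups were spread, with means of 712.5 ± 206 (SD, n = 3) and 256.4 ± 102 (SD, n = 3). The log2 fold change was -1.53 (SE 0.32, adjusted p = 0.021 from limma), a 2.78-fold lower mean. The call was lost without normal replicate 2 or normal replicate 3 (adjusted p = 0.057 and 0.059). The other probe set of Smad3 (1369528_at) was dim, at 6.8 to 46.1 in normal and 26.2 to 37.1 in diabetic muscle, and its log2 fold change of 0.97 had an interval from -0.59 to 2.53.

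Smad7, the inhibitory Smad, was higher. Its brightest probe set (1368896_at) had signals of 62.5, 53.7 and 57.2 in normal and 152.5, 188.2 and 140.6 in diabetic muscle. The normal rats were close together below the filter level, and every diabetic rat was above it. The means were 57.8 ± 4.43 (SD, n = 3) and 160.4 ± 24.8 (SD, n = 3), a 2.78-fold rise (log2 fold change 1.46, SE 0.27, adjusted p = 0.012 from limma), which missed the threshold without diabetic replicate 2 (adjusted p = 0.066). Since this probe set entered the fit with the filter only through the diabetic arrays, its value among all probe sets without the filter is given too (adjusted p = 0.0275). The other probe sets of Smad7 (1368898_at and 1368897_at), both below the filter, had overlapping groups. They ran from 30.2 to 81 and from 9.7 to 57.5 in normal and from 16.8 to 93.4 and from 37.4 to 46.8 in diabetic muscle. Their log2 fold changes were 0.06 (95% interval -1.47 to 1.59) and 0.58 (95% interval -0.86 to 2.03).

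Tgif1, a homeodomain protein that recruits histone deacetylases to Smad complexes, had the largest difference among those called above the filter. Its probe set (1373421_at) had signals of 197.4, 176 and 110.9 in normal and 604.6, 913.7 and 735.8 in diabetic muscle. The lowest diabetic rat was well above the highest normal rat. The mean rose from 161.4 ± 45.1 (SD, n = 3) to 751.4 ± 155 (SD, n = 3), 4.65-fold (log2 fold change 2.24, SE 0.25, adjusted p = 0.0011 from limma). The call was kept in all 6 fits that leave out 1 array (adjusted p up to 0.0069), with ratios of 4.02 to 5.24.

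Of the genes called in the fit with the filter, Fstl1, Smad3 and Smad7 have an entry in the RefSeq promoter table for the rat build GRCr8, as do Tgfb1, Tgfb2 and Tgfb3, and Mstn, Fst and Tgif1 have none. The 250 bases before the gene start of those called are shown, 5′ to 3′ on the strand of the gene, to set the start regions of genes that moved in opposite directions side by side. Capitals mark CG dinucleotides. They lie at chr11:76454054-76454303 on the minus strand for Fstl1, chr8:73132325-73132574 on the minus strand for Smad3 and chr18:71263258-71263507 on the plus strand for Smad7.
Fstl1: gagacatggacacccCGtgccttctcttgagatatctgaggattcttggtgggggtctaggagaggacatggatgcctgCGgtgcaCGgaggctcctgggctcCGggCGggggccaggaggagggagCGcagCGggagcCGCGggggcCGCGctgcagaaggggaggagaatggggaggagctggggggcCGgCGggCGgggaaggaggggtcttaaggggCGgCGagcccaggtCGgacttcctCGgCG
Smad3: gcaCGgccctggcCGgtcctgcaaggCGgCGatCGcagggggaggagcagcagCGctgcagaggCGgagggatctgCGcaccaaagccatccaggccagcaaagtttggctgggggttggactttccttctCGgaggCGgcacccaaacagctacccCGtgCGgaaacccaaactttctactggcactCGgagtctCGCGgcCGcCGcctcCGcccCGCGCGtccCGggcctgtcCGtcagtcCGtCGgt
Smad7: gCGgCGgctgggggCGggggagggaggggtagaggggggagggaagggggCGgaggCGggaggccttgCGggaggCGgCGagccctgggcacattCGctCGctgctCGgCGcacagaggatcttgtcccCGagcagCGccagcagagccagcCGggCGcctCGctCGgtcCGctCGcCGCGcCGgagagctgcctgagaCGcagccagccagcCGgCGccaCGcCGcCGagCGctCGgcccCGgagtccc
The share of G and C was 70.0% for Fstl1, 68.4% for Smad3 and 78.0% for Smad7, and CG occurred 19, 25 and 32 times. Over all 33469 promoters of this length the medians were 51.2% and 5. The gene that was higher and those that were lower all lay above both medians. The motifs GTCTAGAC (the Smad-binding palindrome), CAGACA (a short site for Smad3 and Smad4), GTAAACA (bound by FoxO factors) and CAGCTG (an E box of myogenic factors) were searched on both strands, and none was found in the windows of the 6 genes with an entry. The share of all promoters that hold them is 0.173%, 17.2%, 3.21% and 12.0%.

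A wider list of 88 genes of the pathway, the members included, was read with 1 probe set per gene. Of these, 77 had a probe set and 59 were above the filter, of which 6 were higher, 9 lower and 44 did not pass. Over all 7080 genes above the filter 3.46% were higher and 3.55% were lower. The median log2 fold change was 0.15 for the list and 0.01 for all genes. With the members set aside, 4 of 52 tested genes were higher and 6 were lower.

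No ligand or receptor of the list above the filter was called. Of 16 ligands with a probe set 8 lay below the filter, Mstn among them, whose call without the filter is given above. None of the 8 tested ligands passed in limma, 2 had an unadjusted p under 0.05, and their median log2 fold change was -0.02. At that unadjusted level 1163 of all 9519 probe sets above the filter were higher and 1112 were lower. Inhbb, the beta B subunit of activin and inhibin, went from 87.3 ± 32.6 (SD, n = 3) to 146 ± 35.5 (SD, n = 3) and did not pass (adjusted p = 0.18 from limma). Gdf11, the closest relative of myostatin, lay below the filter on its brighter probe set, at 101.3 ± 6.26 (SD, n = 3) and 100.1 ± 29.1 (SD, n = 3). None of 10 tested receptors and co-receptors passed either, and 0 had an unadjusted p under 0.05, with a median log2 fold change of 0.27. The summed signal of the 11 with a probe set was 2444 to 2708 on normal and 2753 to 3216 on diabetic arrays, without overlap. The myostatin receptors Acvr2a and Acvr2b had log2 fold changes of 0.39 (SE 0.18, adjusted p = 0.21) and 0.20 (SE 0.20, adjusted p = 0.58), and Tgfbr1, a type I receptor of the transforming growth factors beta, had 0.27 (SE 0.23). In the other roles, called genes included, the unadjusted p from limma was under 0.05 for 4 of 9 secreted inhibitors and carriers. The same held for 3 of 6 Smad genes, 4 of 9 genes of nuclear co-factors and Smad turnover, and 11 of 17 induced genes.

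Of 9 tested secreted inhibitors and carriers 3 were lower, Fst and Fstl1 as above and Ltbp4, which holds latent transforming growth factor beta in the matrix. Ltbp4 had signals of 3146, 3056.4 and 3846.5 in normal and 2032.1, 2008 and 1036.5 in diabetic muscle. Its means differed 1.98-fold without overlap (log2 fold change -1.04, SE 0.25, adjusted p = 0.033 from limma), and it kept its call in 3 of the 6 fits that leave out 1 array. Dcn, the gene of decorin, a matrix proteoglycan that binds these ligands, had a log2 fold change of -0.11 (SE 0.13, adjusted p = 0.68).

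Of 6 tested Smad genes, Smad3 was lower, Smad7 was higher and the other 4 did not pass. Smad2, the partner of Smad3, had a log2 fold change of -0.05 (SE 0.23, adjusted p = 0.93 from limma). Smad4, the shared partner, had 0.48 (SE 0.19, adjusted p = 0.16) and, on its other probe set, 0.55. Whether the change of Smad3 differs from that of Smad2 was not tested. Among 9 tested genes of nuclear co-factors and Smad turnover, which hold the co-activators Crebbp and Ep300 beside the co-repressors, Tgif1 alone passed. Nedd4l, a ubiquitin ligase that acts on Smads, went from 300.6 ± 93.0 (SD, n = 3) to 528.1 ± 70.3 (SD, n = 3) and missed the threshold (adjusted p = 0.060), and Skil, another co-repressor, had a log2 fold change of 0.10 (SE 0.17).

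**Figure D3:**
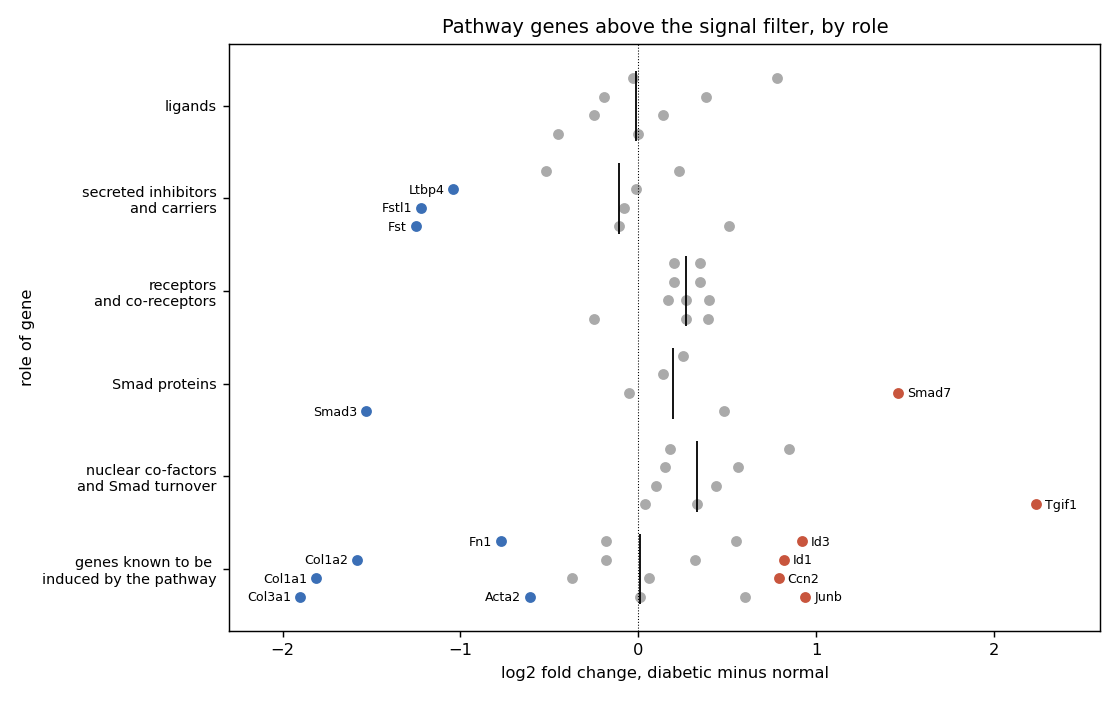
Log2 fold change, diabetic minus normal, of the 59 pathway genes above the filter, 1 point per gene, by role. Blue points were lower and red points higher at an adjusted p under 0.05, grey points did not pass, and black lines are the medians, -0.02 for ligands and 0.27 for receptors. Vertical position within a role has no meaning.

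The genes listed as induced by the pathway, the Id genes among them, moved in both directions. Of 17 tested, 4 were higher, 5 were lower and 8 did not pass, with a median log2 fold change of 0.01. The genes that fell were those of the fibrillar collagens Col3a1, Col1a1 and Col1a2, of fibronectin (Fn1) and of smooth muscle actin (Acta2). Col3a1 had signals of 14343.9, 15168.7 and 18439 in normal and 5465.4, 3561.8 and 3951 in diabetic muscle, a 3.70-fold lower mean without overlap (log2 fold change -1.90, adjusted p = 0.00061 from limma). Col1a1 was 3.51-fold, Col1a2 2.91-fold, Fn1 1.69-fold and Acta2 1.52-fold lower. Of the 6 fits that leave out 1 array, the collagens passed in all 6, Fn1 in 2 and Acta2 in 0. The study's own list, selected on these same arrays, holds the collagens.

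The genes that rose were Junb, a subunit of the AP-1 factor, Id3 and Id1, inhibitors of basic helix-loop-helix factors that respond mainly to bone morphogenetic proteins, and Ccn2, a matricellular growth factor. Junb had signals of 126.5, 106.3 and 147 in normal and 243.3, 196.8 and 294.3 in diabetic muscle, a 1.93-fold higher mean (log2 fold change 0.94, SE 0.23, adjusted p = 0.039 from limma). Id3 rose 1.87-fold, Id1 1.74-fold and Ccn2 1.70-fold (adjusted p = 0.043, 0.049 and 0.042). In these 4 genes every diabetic rat was above every normal rat, which is likely for genes picked by a test of the same arrays. Groups did not overlap for 29.6% of all probe sets above the filter. Each of the 4 kept its call in only 1 of the 6 fits that leave out 1 array (adjusted p up to 0.14). Tgfbi, named for its induction by transforming growth factor beta, had a log2 fold change of 0.01 (SE 0.14).

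**Figure D4:**
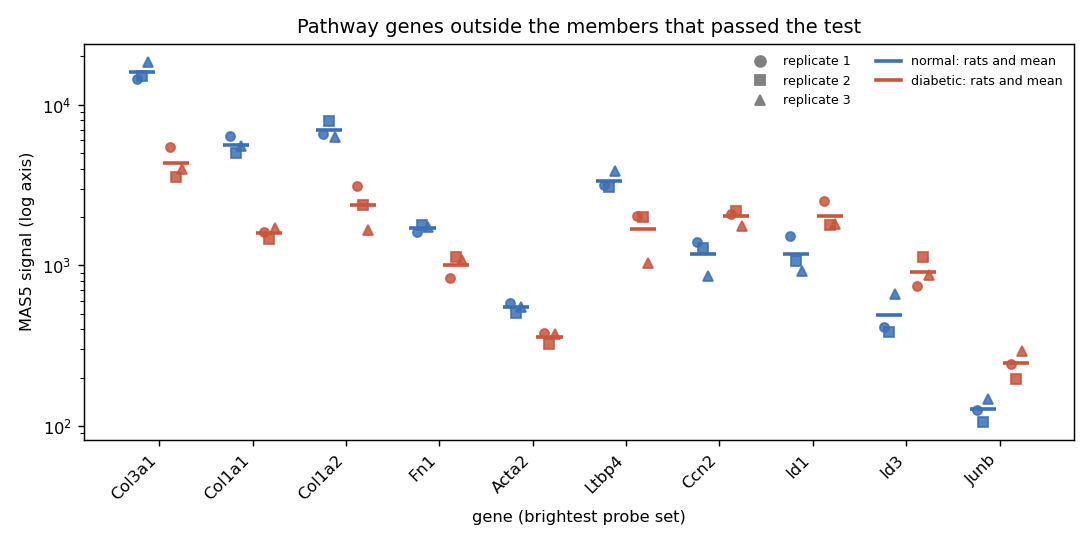
MAS5 signal on a log axis of the 10 pathway genes outside the 9 followed here that passed the test, in normal (blue) and diabetic (red) diaphragm. Each symbol is 1 rat and each short line the mean of 3. The 6 genes on the left were lower and the 4 on the right higher in diabetic muscle, with no overlap between the groups. Such separation is likely for genes picked by a test of the same arrays.

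Several of these genes are also used to mark other cells of muscle. The summed signal of 7 fibroblast markers was 43305 to 47430 on normal and 21991 to 23145 on diabetic arrays, and 4 of the 6 above the filter were lower. Those were Col1a1, Col1a2 and Col3a1, which are also in the pathway list, and Lum, the matrix proteoglycan lumican, 2.72-fold lower (adjusted p = 0.0055 from limma). The sum fell mostly through the collagens, so it largely restates their result. Mean signals in normal and diabetic muscle were 15980 and 4326 for Col3a1, 6920 and 2380 for Col1a2 and 5616 and 1599 for Col1a1. Those of Dcn were 13590 and 12670. Pdgfra, a receptor that defines muscle fibroblasts, and Dcn did not pass (log2 fold change -0.34 and -0.11). The part of fibroblast content in the values of Fstl1, Smad3 and the collagens was not tested.

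The summed signal of 3 endothelial markers was 1884 to 2159 on normal and 2552 to 2844 on diabetic arrays, and 1 of the 3, the receptor gene Kdr, passed with all arrays (1.58-fold higher, adjusted p = 0.046 from limma) and in 0 of the 6 fits that leave out 1 array (adjusted p up to 0.15). That of the 2 satellite cell and myoblast markers with a probe set, Myod1 and Myog, was 1037 to 1329 on normal and 694 to 906 on diabetic arrays, and neither passed. Myod1 was 2.50-fold lower and missed the threshold narrowly (log2 fold change -1.37, SE 0.37, adjusted p = 0.0545 from limma). Myog had a log2 fold change of -0.33 (SE 0.18, adjusted p = 0.30). The summed levels of macrophage, smooth muscle, adipocyte, mesothelial and red blood cell markers overlapped between the groups, with 1 called gene among them, Acta2. The part of these cells in the results above was not tested.

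Normal replicate 3 was the highest normal array for 6 of the 11 probe sets above the filter, against 37.9% of all probe sets above it. Without it the log2 fold change of Smad3 was -1.32, and the dimmer probe set of Tgfb2 had a difference of the opposite sign (0.10), neither value past the threshold.

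Among the 7080 genes above the filter, those whose log2 signal followed Mstn most closely over the 6 arrays were Sbk1, Pdp1 and Slc25a25, with Pearson's r of 0.993, 0.987 and 0.985. Slc25a25, a mitochondrial carrier of adenine nucleotides and phosphate, had signals of 613.6, 513.7 and 939.3 in normal and 228.9, 77.5 and 145.2 in diabetic muscle. The order of the rats was that of Mstn, with normal replicate 3 the highest and diabetic replicate 2 the lowest. The genes most opposed to Mstn were Ddx21, a nucleolar RNA helicase, Rfx1 and Commd9, with r of -0.996, -0.994 and -0.993. In all, 90 genes had an r above 0.95 and 64 below -0.95. These are descriptions over 6 arrays that share the group difference, and they rest on Mstn signals of which 5 lie below the filter level, where they cannot be told from background.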

How the data were processed

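RNA of whole hemidiaphragm from 6 rats was read on Affymetrix arrays, 1 for each animal. Per the labels the deposited values are MAS5 signals, which the authors scaled on every array, so the unit is a linear intensity for each probe set. Detection calls did not enter.

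Intensities under 1 were raised to 1 before log2 was taken. After removal of 57 control probe sets, those whose mean intensity exceeded the 40th percentile (105.8) were kept, 9519 in number. Group differences came from limma 3.58.1 in R 4.3.3 (lmFit, then eBayes with a trend on mean signal), with Benjamini-Hochberg adjustment over all of these. Members under the filter were read from a fit of all 15866 probe sets. A fold is the ratio of group means of signal, and each other gene stands for its brightest probe set. The study used a different, Bayesian method, which was not repeated.

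Genes named were the members, up to 4 others for each role of the pathway list, taken by size of log2 fold change among those that passed, and the 3 genes most and least correlated with Mstn. All other genes named were chosen after their values were seen, apart from markers of lists that moved. Members and lists were chosen with earlier results of these data known. The fit was tested on simulated data. Alternatives were median or quantile scaling, offsets of 16 and 64, other filters and thresholds, no trend, weights for arrays, a block for replicate number, the mean of a gene's probe sets, and leaving out arrays singly. Fits that combine these with no filter were added after seeing the data, since Mstn lies under the filter.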

Additional observations from a re-analysis of the deposited data

How the results depend on the processing

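The number of arrays limits the precision. Counts that moved by over 1.5 times are given here. Of all probe sets above the filter, 314 were higher and 331 lower. Without the signal filter 200 were higher. With the replicate number as a block 162 were higher and 170 lower. At an adjusted p under 0.1, 562 were higher and 585 lower, and at an unadjusted p under 0.05, 1163 were higher and 1112 lower. When the arrays were left out one at a time, 133 to 226 were higher and 179 to 235 lower.

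Of the probe sets of the 9 genes, 2 rose and 4 fell. With the filter at the 60th percentile 1 was higher, since Smad7 was no longer tested, and over the arrays left out 1 to 2 were higher and 2 to 4 lower. Of the pathway list, 6 genes were higher and 9 lower. There were 2 higher without the filter, 3 higher with no trend in the variance prior, and 14 higher at an unadjusted p under 0.05. Over the arrays left out, 1 to 4 were higher and 4 to 8 lower. The causes of these shifts were not tested.

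The log2 fold changes that turned sign had not passed the test. Without normal replicate 3, the dimmest probe set of Fstl1 went to 0.21 and the dimmer one of Tgfb2 to 0.10, and over all arrays left out they ranged from -0.52 to 0.21 and from -0.36 to 0.10. In the fit without the filter, the second probe set of Smad7 went to -0.29, -0.30 and -0.38 without normal replicate 1, diabetic replicate 2 and diabetic replicate 3. Its dimmest probe set went to -0.17 without normal replicate 2, and Tgfb1 went to 0.46 without diabetic replicate 3.

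Normal and diabetic arrays share replicate numbers but no animals. The deviations of same-numbered arrays from their group means correlated at 0.098, -0.195 and -0.068. Those of differently numbered normal and diabetic arrays ran from -0.124 to 0.200. With 3 arrays per group, these values cannot show whether the numbers pair the arrays. Under the replicate block the brighter probe set of Smad3 (adjusted p = 0.068 from limma) and Mstn in the fit without the filter (adjusted p = 0.063) did not pass, and the other 5 member probe sets called with all arrays still passed. The pathway list then had 4 genes higher and 6 lower.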
